A study of Mus musculus with 8 samples.

Results

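The FGF ligands and receptors of WT and CTCF-K20R cells were examined. Rows of the deposited expression table were taken whose gene name was Fgf3, Fgf4, Fgf5, Fgf8, Fgf15 or Fgf17 for the 6 ligands and Fgfr1, Fgfr2, Fgfr3 or Fgfr4 for the 4 receptors. All 10 genes were found once among the 18094 genes of the table, and all 10 were among the 15767 genes that averaged 10 normalized counts or more over the libraries and were tested. The mRNA-seq libraries came from mouse embryonic stem cells (mESCs) of the E14Tg2A line on day 0 and of embryoid bodies (EBs) made from them on day 4, from WT cells and from CTCF-K20R cells, 8 libraries in all with 2 in each of the 4 groups. CTCF-K20R cells carry arginine at lysine 20 of CTCF, a DNA-binding protein of insulators and chromatin loops, introduced with CRISPR/Cas9 and a donor vector. The labels do not say how many edited clones were sequenced. Day 0 cells of both genotypes grew in serum on mitomycin C-inactivated mouse embryo fibroblasts with LIF and the 2i inhibitors, CHIR99021 against GSK3 and PD0325901 against MEK, the kinase that relays FGF signals to ERK. EBs of both genotypes were grown in hanging drops in serum without LIF.

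FGF ligands are secreted proteins that bind receptor tyrosine kinases together with heparan sulfate, and the signal passes through RAS, MEK and ERK to feedback inhibitors such as Sprouty and DUSP proteins and to ETV transcription factors. In mESCs, FGF4 is the main autocrine ligand and its signal through ERK prepares the cells to leave naive pluripotency. FGF5 marks the epiblast after implantation, and FGF8 is made in the primitive streak, where FGFR1 is needed for mesoderm cells to move away. FGF3, FGF15 and FGF17 have roles that include later patterning, among them of the inner ear, the brain and the tail bud.

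Values are normalized counts, with 3 reads equal to 2.43 to 3.44 normalized counts in a library, the limit of detection. The 2 WT libraries of each day differed by less than the sampling noise of reads (ratio to that noise of 0.314 on day 0 and 0.278 on day 4, against 4.00 and 4.36 for the CTCF-K20R pairs). They were averaged and counted as 1 sample, so that each comparison of genotypes set 2 CTCF-K20R samples against 1 WT sample. Differences were fitted on log2(value + 1) with limma over all genes tested, and a gene was called when the log2 fold change was past 1 in either direction with an adjusted p under 0.05. In that fit the spread of each gene drew on the CTCF-K20R pairs of both days together. The day 0 pair therefore also entered the day 4 tests, and the day 4 pair the day 0 tests. Ctcf itself differed by 0.19 on the log2 scale on both days, short of a call, which does not read the point mutation. Of 10 markers of primitive streak and mesoderm, all 10 were called lower in CTCF-K20R EBs, beside 8.65% of all genes tested. Their summed levels were 58715 and 59068 normalized counts in the WT EBs against 2587 and 2476 in the CTCF-K20R EBs. All 5 markers of definitive endoderm were also called lower, with sums of 15090 and 15117 against 146 and 145. Summed epiblast markers went the other way, from 21354 and 21294 in WT EBs to 47990 and 50072 in CTCF-K20R EBs. Of these 5 markers 3 were called higher and 0 lower, beside 6.89% and 8.65% of all genes tested. Dnmt3b held most of the sum, at 14624 and 14620 against 36756 and 38180. Otx2 was not called and stood slightly lower, at 3709 in both WT EB libraries against 3402 and 3436. Of 5 neural markers 2 were also called higher and 0 lower, beside 6.89% and 8.65% of all genes tested. Their median log2 fold change was 1.62, with 1 marker lower. These bulk values cannot tell fewer cells of a type from less RNA per cell, and the part of this marker difference in the FGF results was not tested.

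On day 4, 1 of the 10 FGF genes was called higher in CTCF-K20R EBs and 1 was called lower, beside 6.89% of all genes tested called higher and 8.65% called lower. The gene called lower was Fgf3 and the gene called higher was Fgf4. In 8 of the 10 genes each CTCF-K20R library was lower than each WT library, and in 1 each was higher, whereas such a separation held for 41.7% and 43.3% of all genes tested. Over the 10 genes the log2 fold changes had a median of -0.65, and over all genes tested a median of 0.01.

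**Figure D1:**
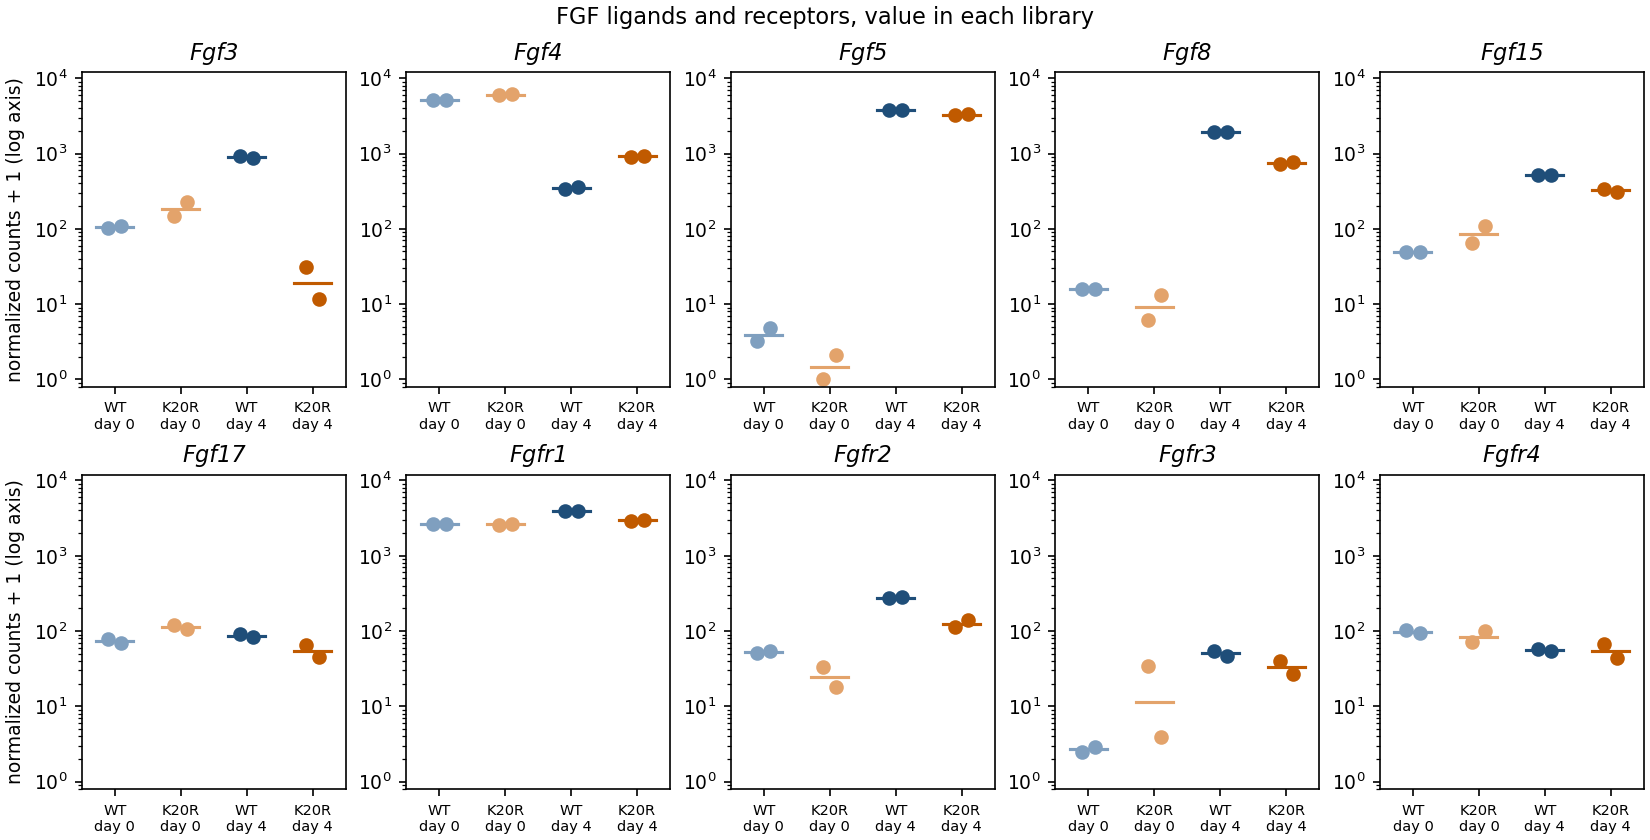
Normalized counts plus 1 on a log axis for each of the 10 genes, with a point for each library and a line at the mean of the log values of each group (WT and CTCF-K20R, here K20R, on day 0 and day 4). Fgf3 is higher on day 4 than on day 0 in WT and lowest in the CTCF-K20R EBs, while Fgf4 is lower on day 4 in both genotypes, and higher in CTCF-K20R than in WT EBs.

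Fgf3 and Fgf4 lie side by side on chromosome 7, and their differences had opposite signs. In GENCODE vM21 (GRCm38), Fgf3 spans chr7:144838083-144844436 and Fgf4 spans chr7:144847367-144865243, both on the plus strand, with Fgf15 at chr7:144896531-144900953 on the same strand. RefSeq starts the Fgf4 gene at 144861386, inside the GENCODE gene. The 300-base promoters of Fgf3 and Fgf4 are shown because they are the neighbours that changed in opposite directions, with that of Fgf5, the ligand on chromosome 5 that was high in both kinds of EBs. They are the plus strand of GRCm38.p6 as RefSeq gives it, from 250 bases before to 50 bases after the start. Capitals mark the letters CCCTC on either strand, the word from which CTCF takes its name, which is far shorter than a CTCF binding motif.

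Fgf3 promoter, chr7:144838362-144838661: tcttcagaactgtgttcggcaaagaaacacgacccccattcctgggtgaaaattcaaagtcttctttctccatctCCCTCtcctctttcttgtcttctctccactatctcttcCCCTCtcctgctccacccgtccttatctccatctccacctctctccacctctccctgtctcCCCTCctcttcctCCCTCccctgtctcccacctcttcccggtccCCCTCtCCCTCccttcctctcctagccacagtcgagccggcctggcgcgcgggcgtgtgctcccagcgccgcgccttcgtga

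Fgf4 promoter, chr7:144861136-144861435: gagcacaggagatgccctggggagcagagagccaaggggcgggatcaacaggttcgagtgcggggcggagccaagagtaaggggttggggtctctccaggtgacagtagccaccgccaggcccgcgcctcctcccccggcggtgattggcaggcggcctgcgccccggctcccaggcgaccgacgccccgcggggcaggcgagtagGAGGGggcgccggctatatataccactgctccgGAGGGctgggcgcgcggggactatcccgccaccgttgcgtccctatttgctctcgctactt

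Fgf5 promoter, chr5:98253934-98254233: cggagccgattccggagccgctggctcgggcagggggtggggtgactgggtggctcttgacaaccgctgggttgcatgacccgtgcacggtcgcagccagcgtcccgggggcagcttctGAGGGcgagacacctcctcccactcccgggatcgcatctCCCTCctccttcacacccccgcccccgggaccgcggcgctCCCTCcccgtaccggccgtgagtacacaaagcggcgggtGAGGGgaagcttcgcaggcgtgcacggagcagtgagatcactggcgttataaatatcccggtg

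The Fgf3 promoter held CCCTC 6 times and a GC content of 59.3% with 14 CpG sites. At least 6 matches were present in 1.87% of the 32544 RefSeq promoters of this length. The Fgf4 promoter was richer in GC (69.7%, 28 CpG sites) and held CCCTC 2 times, which 36% of promoters reach. The Fgf5 promoter held 4 matches (8.27% of promoters hold as many), with 68.3% GC and 29 CpG sites, where the median promoter had 53% GC and 7 CpG sites. At least 1 match of CCCTC was in 66.1% of all promoters. A T-box half-site, TCACACC, was found in the Fgf5 promoter and not in the other two, and in 3.96% of all promoters. TATAAA was also found in the Fgf5 promoter alone among these (13.6% of all promoters), and CTTTGA, a word of TCF/LEF sites, in the Fgf3 promoter alone (16.0% of all promoters). Both strands were searched and matches that share a base were counted separately. Promoters of 6 of the 10 genes were matched in the RefSeq table, namely Fgf3, Fgf4, Fgf5, Fgfr2, Fgfr3 and Fgfr4. A match describes the letters only, and binding was not analysed here.

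Of the 6 ligands, Fgf3 had the widest genotype difference on day 4. It measured 923 and 866 normalized counts in WT EBs, against 30.4 and 10.7 in CTCF-K20R EBs. The groups did not overlap, and the mean of the CTCF-K20R EBs was 2.30% of that of the WT EBs. The log2 fold change was -5.54 (SE 0.61, 95% interval -7.07 to -4.01, adjusted p = 0.00161). It was called under all 20 alternative settings, with log2 fold changes from -6.25 to -4.83. In WT cells Fgf3 had been 103 and 108 on day 0, so it was 8.51-fold higher in WT EBs than in WT mESCs. In CTCF-K20R cells it went from 147 and 229 on day 0 to the lowest level of the 4 groups, a log2 fold change of -3.27 (SE 0.50, adjusted p = 0.00274). Thus the level order was WT EBs, then CTCF-K20R mESCs, WT mESCs and CTCF-K20R EBs, and the 2 mESC groups, neighbours in that order, were not told apart by the test.

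Fgf4, a target of OCT4 and SOX2 in mESCs, was lower in EBs than in mESCs of both genotypes, and by less in CTCF-K20R cells. On day 0 it measured 5196 and 5162 normalized counts in WT and 5988 and 6101 in CTCF-K20R cells. In EBs it measured 341 and 355 in WT and 900 and 934 in CTCF-K20R. The CTCF-K20R EBs therefore held 2.63 times the WT level, a log2 fold change of 1.39 (SE 0.06, 95% interval 1.26 to 1.53, adjusted p = 7.42e-05), called under all 20 alternative settings. The EBs of WT and of CTCF-K20R kept 6.72% and 15.2% of their own day 0 means. The summed level of 8 pluripotency markers was 16116 and 16269 in WT EBs, against 32243 and 31639 in CTCF-K20R EBs. Most of that sum was Pou5f1, at 12595 and 12696 against 21940 and 21590. Pou5f1 passed the adjusted p but not the fold change (log2 fold change 0.78, adjusted p = 0.00011). Sox2 was called higher, at 608 and 618 against 3240 and 3192 (log2 fold change 2.39, adjusted p = 1.58e-05). Of the 8 markers, 4 were called higher and 2 lower, beside 6.89% and 8.65% of all genes tested. Their part in the Fgf4 difference was not tested.

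Of the 6 other genes tested within 300 kb of the Fgf3 start, Fgf15 included, none was called on day 4. Over all genes tested 6.89% were called higher and 8.65% lower. Ccnd1, which encodes cyclin D1, was lower by 0.64 on the log2 scale (SE 0.07, adjusted p = 0.00147), short of the fold change required. Log2 fold changes were -0.58 for Oraov1 (adjusted p = 0.214), which overlaps Ccnd1 on the opposite strand, and -0.87 for Ano1 (adjusted p = 0.329), the chloride channel gene on the other side of Fgf3. Fadd, further out on that side, was at -0.90 (adjusted p = 0.0229). Gm26793, which overlaps Fgf15 on the opposite strand, was at -0.32 (adjusted p = 0.602). The use of strand in the counting is not given in the sources used here. Reads of Fgf15 and Gm26793, or of Oraov1 and Ccnd1, may therefore not have been separated.

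**Figure D2:**
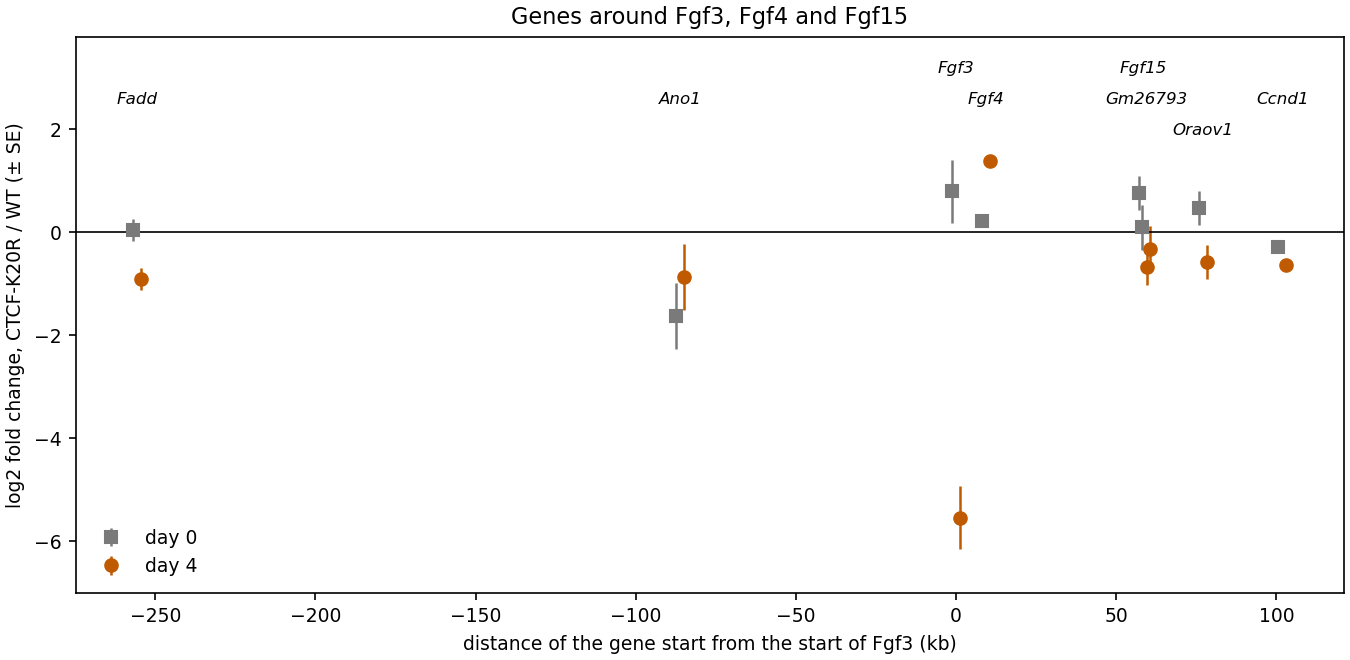
Log2 fold change of CTCF-K20R against WT with its standard error, on day 0 (grey squares) and day 4 (orange circles), against the distance of each GENCODE gene start from that of Fgf3 in kb, with the points of the 2 days drawn slightly apart. On day 4, Fgf3 stands at -5.54 and its neighbour Fgf4 at 1.39, and the other 6 genes lie between -0.90 and -0.32.

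Fgf5, the epiblast ligand, reached high levels in EBs of either genotype. It measured 3765 and 3753 normalized counts in WT EBs, against 3205 and 3309 in CTCF-K20R EBs, and the groups did not overlap. The log2 fold change was -0.21 with a 95% interval of -1.35 to 0.94 (adjusted p = 0.750). The CTCF-K20R mESC libraries, at 0 and 1.1, enter the same estimate of spread, so this interval is not that of the EB values alone. Over 20 alternatives the log2 fold change ran from -0.33 to -0.18. On day 0 it was at or near the limit of detection, with 2.25 and 3.76 in WT and 0 and 1.1 in CTCF-K20R cells. No fold between the days is given, since the day 0 values rest on a few reads at most.

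Fgf8, the ligand of the primitive streak, was higher in EBs than in mESCs of either genotype and stood lower in the CTCF-K20R EBs, though short of a call. On day 0 it measured 14.7 and 14.8 normalized counts in WT and 5.22 and 12.2 in CTCF-K20R cells. By day 4 it measured 1956 and 1925 in WT EBs, with 719 and 765 in CTCF-K20R EBs, so that the latter stood at 38.2% of the WT mean without overlap. The log2 fold change of -1.39 (SE 0.45, 95% interval -2.52 to -0.25) had an adjusted p of 0.0590. It was called under 8 of 20 alternatives, over which the adjusted p from limma ran from 0.00150 to 0.263. These were the fit of only the day 4 groups (0.00150), all 8 libraries as separate samples (0.00643), a replicate block (0.0262), a pseudocount of 10 (0.00820), a mean of at least 50 (0.0444), quantile normalization (0.0389) and the fits without replicate 1 (0.00879) or 2 (0.0103) of the CTCF-K20R mESCs.

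Fgf15, the mouse counterpart of human FGF19, and Fgf17, a close relative of Fgf8, were each lower in the CTCF-K20R EBs by amounts that did not pass the test. Fgf15 measured 523 and 516 normalized counts in WT EBs, against 339 and 309 in CTCF-K20R EBs (log2 fold change -0.68, SE 0.33, adjusted p = 0.161). For Fgf17 the values were 89.2 and 83.4 against 64.3 and 44.3 (log2 fold change -0.68, SE 0.31, adjusted p = 0.139). The genotypes did not overlap in either gene. On day 0 the order was the other way for both. Fgf15 was at 48.7 and 48.3 in WT mESCs and 63.5 and 109 in CTCF-K20R mESCs, and Fgf17 at 76.9 and 68.0 against 121 and 107.

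Among the 4 receptors, none was called on day 4, beside 6.89% of all genes tested called higher and 8.65% called lower. Fgfr1, the main receptor of the early embryo, measured 3874 and 3925 normalized counts in WT EBs, against 2935 and 2947 in CTCF-K20R EBs. It passed the adjusted p but not the fold change, with a log2 fold change of -0.41 (SE 0.04, 95% interval -0.52 to -0.30, adjusted p = 0.00154), so the CTCF-K20R EBs held 75.4% of the WT level. On day 0 the genotypes overlapped, with 2640 and 2617 in WT and 2595 and 2623 in CTCF-K20R cells. In the level order of Fgfr1, the CTCF-K20R EBs thus stood between the mESCs and the WT EBs.

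Fgfr2, whose isoforms answer to ligands of epithelium and mesenchyme, had lower values in CTCF-K20R cells on both days. It measured 271 and 283 normalized counts in WT EBs, against 113 and 137 in CTCF-K20R EBs, and 50.8 and 53.0 in WT mESCs and 32.3 and 16.9 in CTCF-K20R mESCs. The log2 fold changes were -1.14 on day 4 (SE 0.43, adjusted p = 0.0838) and -1.12 on day 0 (SE 0.43, adjusted p = 0.144). These differed between the days by -0.03, with a 95% interval of -1.53 to 1.48. Neither was called, but day 4 was called with only the day 4 groups fitted (adjusted p = 0.0208) and without a day 0 CTCF-K20R library (adjusted p = 0.0385 without replicate 1 and 0.0347 without replicate 2). The GENCODE vM21 gene spans chr7:130162451-133123350 and overlaps 69 other genes, whereas the RefSeq gene ends at 130266808.

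Fgfr3 and Fgfr4 showed no called difference. Fgfr3 measured 52.8 and 46.3 normalized counts in WT EBs, against 39.4 and 25.9 in CTCF-K20R EBs, with a log2 fold change of -0.62 and a 95% interval of -3.73 to 2.49. The 2 CTCF-K20R mESC libraries, which enter the same estimate of spread, held 33.3 and 2.92, while the WT mESC libraries were under the limit at 1.5 and 1.88. Fgfr4 was at 56.8 and 52.7 in WT EBs, with 66.3 and 43.3 in CTCF-K20R EBs, which overlapped (log2 fold change -0.03, 95% interval -0.96 to 0.91). Its mESC libraries also overlapped, with 102 and 93.1 in WT and 71.1 and 97.7 in CTCF-K20R cells.

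**Figure D3:**
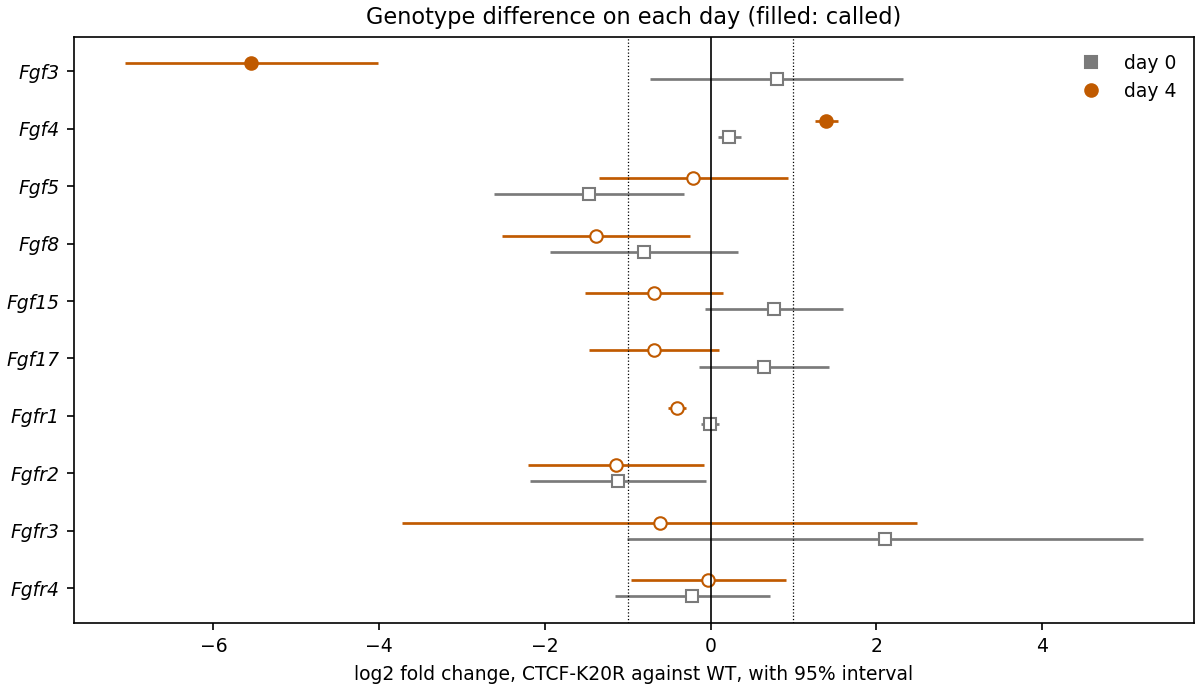
Log2 fold change of CTCF-K20R against WT with its 95% interval for each of the 10 genes, on day 0 (grey squares) and day 4 (orange circles), with dotted lines at a log2 fold change of -1 and 1 and filled symbols for called genes. Only Fgf3 (-5.54) and Fgf4 (1.39) on day 4 are filled, and the interval of Fgfr3 is the widest on each day.

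On day 0 none of the 10 genes was called with limma, beside 1.19% of all genes tested called higher and 2.6% called lower. At an unadjusted p under 0.05 there were 3 of the 10 genes, where 31.5% of all genes tested were, namely Fgf4 (log2 fold change 0.22, adjusted p = 0.0522), Fgf5 (-1.47, adjusted p = 0.0910, at the limit of detection) and Fgfr2. With all 8 libraries as separate samples, 2 were called, Fgf5 and Fgfr2, where 445 of all genes tested were called higher and 903 lower. Without replicate 2 of the CTCF-K20R mESCs 2 were also called, Fgf5 (adjusted p = 0.0279) and Fgfr3 (adjusted p = 0.0468), the latter resting on the library with 33.3 normalized counts. Both CTCF-K20R libraries were above both WT libraries in 5 genes (37.6% of all genes tested) and below them in 3 (40.3%). Fgf3 was among the former, with a log2 fold change of 0.80 and a 95% interval of -0.73 to 2.33. Fibroblast markers, of which the feeder layer is a possible source, summed to 511 and 501 normalized counts in WT mESCs and 160 and 150 in CTCF-K20R mESCs, with 4 of 7 markers under the limit in each group. Nearly all of that difference was Thy1, at 465 and 459 in WT and 104 and 103 in CTCF-K20R mESCs, and without it the sums were 45.5 and 42.0 against 56.0 and 47.0. Col1a1, a collagen of fibroblasts, went the other way, with 17.4 and 16.0 against 34.3 and 32.2. The part of these markers in the day 0 results was not tested. The all-gene counts behind the day 0 background, 188 higher and 410 lower, were 0 and 0 without either CTCF-K20R EB library and 23 and 33 without a mean-variance trend.

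The genotype difference itself differed between the days for 2 of the 10 genes, 1 lower and 1 higher on day 4 relative to day 0, beside 6.04% and 6.84% of all genes tested. These were Fgf3, with an interaction of -6.34 on the log2 scale (SE 0.86, adjusted p = 0.00581), and Fgf4, with 1.17 (SE 0.08, adjusted p = 0.000696). Fgfr1 passed the adjusted p alone (-0.40, SE 0.06, adjusted p = 0.00925). For Fgf15 and Fgf17, whose order of genotypes turned between the days, the interactions were -1.45 (adjusted p = 0.0759) and -1.32 (adjusted p = 0.0805), short of a call. With all 8 libraries as separate samples both were called (Fgf15 adjusted p = 0.00738, Fgf17 adjusted p = 0.00498), and Fgf15 was also called without replicate 1 of the CTCF-K20R mESCs (-1.83, adjusted p = 0.0235). Without replicate 2 of the CTCF-K20R mESCs, 4 genes passed, Fgf5 and Fgfr3 being added, and without a mean-variance trend 1 gene passed, since the adjusted p of Fgf3 became 0.0555.

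From day 0 to day 4, 7 of the 10 genes changed in CTCF-K20R cells. Of these, 4 rose (14.5% of all genes tested rose) and 3 fell (11.6% fell). Fgf8 rose by 6.35 on the log2 scale (SE 0.37, adjusted p = 7.73e-05), Fgf15 by 1.95 (SE 0.27, adjusted p = 0.00197) and Fgfr2 by 2.37 (SE 0.35, adjusted p = 0.00236), and Fgf5 rose from the limit of detection. Besides Fgf3, the genes that fell were Fgf4, with -2.72 (SE 0.05, adjusted p = 2.29e-06), and Fgf17, with -1.08 (SE 0.26, adjusted p = 0.0146). Without replicate 2 of the CTCF-K20R EBs the count was 4, since Fgf15, Fgf17 and Fgfr2 no longer passed (adjusted p of 0.0522, 0.0853 and 0.0601). Without replicate 1 of the CTCF-K20R EBs Fgf15 did not pass (adjusted p = 0.0590), and Fgf17 did not pass without replicate 1 or 2 of the CTCF-K20R mESCs (adjusted p of 0.0789 and 0.0527). Fgfr3 had a log2 fold change of 1.51 that was not called, but it was called without replicate 1 of the CTCF-K20R mESCs (3.07, adjusted p = 0.0112) and was -0.06 without replicate 2.

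In WT cells the same step is 1 sample against 1, with no replicate check. Past 2-fold, 6 of the 10 genes were higher in the EBs, where 18.9% of all genes tested were, and 1 was lower, where 16.3% were. The log2 differences were 3.08 for Fgf3, 6.94 for Fgf8, 3.40 for Fgf15 and 2.39 for Fgfr2, while Fgf5 and Fgfr3 are given no fold, their WT mESC values being near or under the limit. Fgf4 was the gene that was lower, with a log2 difference of -3.89. Fgf17, Fgfr1 and Fgfr4 had log2 differences of 0.25, 0.57 and -0.82. Fgf3 was therefore higher in EBs than in mESCs in WT cells and lower in CTCF-K20R cells, which is the difference tested by the interaction.

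Levels can be set side by side between genes only per length, so normalized counts were divided by the kb of the longest CCDS transcript of each gene. In mESCs Fgf4 held 93.0% of the summed per-kb level of the 6 ligands in WT and 90.7% in CTCF-K20R cells. The WT EBs were shared by Fgf8 with 41.5% and Fgf5 with 37.5%, followed by Fgf3 with 9.71%, Fgf15 with 7.17% and Fgf4 with 2.87%. In CTCF-K20R EBs Fgf5 held 52.9%, Fgf8 25.8%, Fgf4 12.3%, Fgf15 7.28% and Fgf3 0.364%. The order of Fgf8 and Fgf5 in WT EBs depended on the length used, since with the union of all exons Fgf5 held 41.1% and Fgf8 39.3%. The summed per-kb level of the ligands was 4006 normalized counts per kb in WT EBs and 2460 in CTCF-K20R EBs, against 1838 and 2199 in the mESCs. Among the receptors Fgfr1 held 92.6% and 93.6% of the summed per-kb level in WT and CTCF-K20R mESCs, and 89.4% and 91.7% in the EBs. Fgfr2 was the next receptor in EBs, with 7.40% in WT and 4.56% in CTCF-K20R, and Fgfr4 the next in mESCs, with 5.19% and 4.58%. With the union of all exons Fgfr4 held 9.20% and 8.14% in the mESCs, and in CTCF-K20R EBs it stood above Fgfr2, with 4.69% against 3.68%. These shares are descriptions of group means and were not tested.

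**Figure D4:**
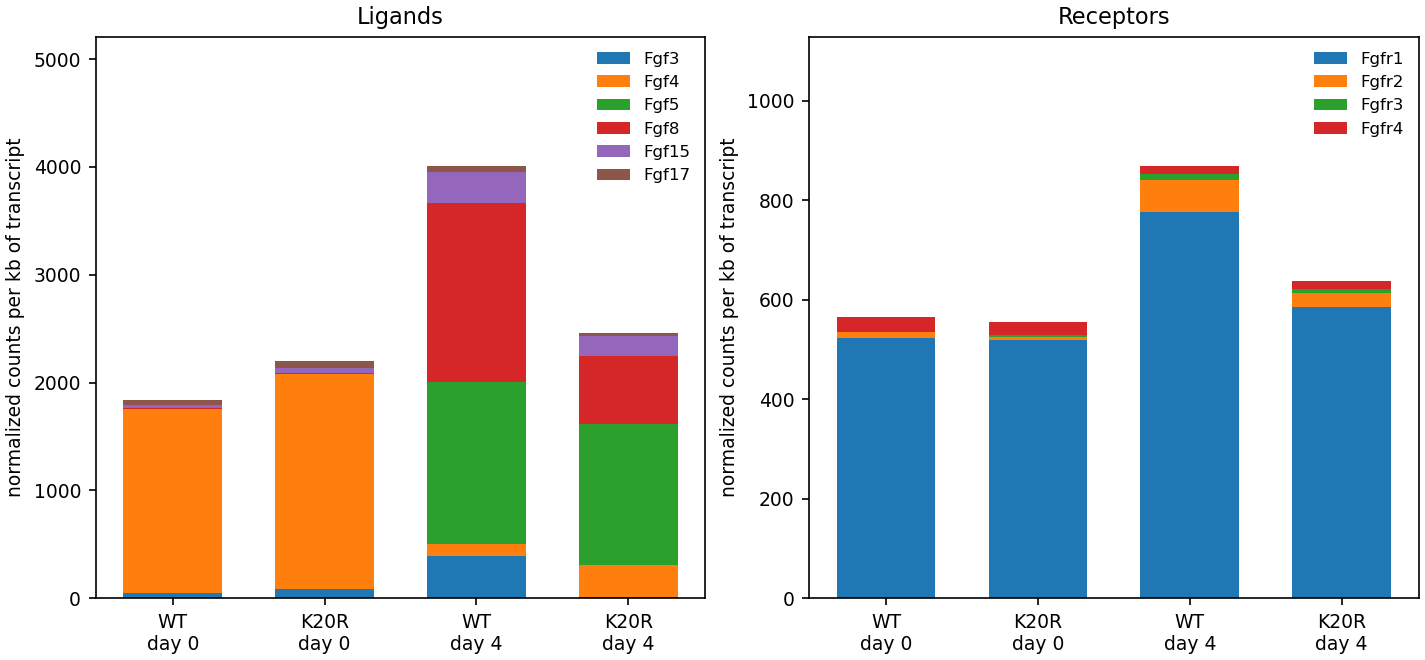
Mean normalized counts per kb of the longest CCDS transcript, stacked by gene, for the 6 ligands (left) and the 4 receptors (right) in WT and CTCF-K20R (K20R) cells on day 0 and day 4. Fgf4 fills most of the ligand bar in mESCs, Fgf5 and Fgf8 most of it in EBs, and Fgfr1 most of every receptor bar.

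Other genes of the pathway were taken from lists of known members. The day 4 counts of this paragraph stand beside 6.89% of all genes tested called higher and 8.65% called lower. Of 12 other secreted ligands 7 were in the table and 2 passed the filter, of which Fgf10, a ligand of FGFR2 known from limb and lung, was called lower on day 4. Fgf10 measured 1267 and 1270 normalized counts in WT EBs, against 7.82 and 30.3 in CTCF-K20R EBs, with a log2 fold change of -6.25 (SE 0.77, adjusted p = 0.00239). Of 3 intracellular FGF homologs tested, which are not secreted and bind sodium channels, 2 were called higher and none lower. These were Fgf11 (86.3 and 81.5 in WT EBs, 268 and 210 in CTCF-K20R EBs) and Fgf14 (28.3 and 30.8 against 128 and 121 normalized counts), with log2 fold changes of 1.49 and 2.04 (adjusted p of 0.00465 and 0.0182). At the level of co-receptors, binding proteins and the decoy receptor, 1 of 4 genes tested was called higher and 1 lower. Fgfrl1, the receptor without a kinase domain, was at 317 and 321 in WT EBs, with 138 and 152 in CTCF-K20R EBs (log2 fold change -1.13, adjusted p = 0.0105). Below the mean of 100 normalized counts set for naming genes of these lists stood Fgfbp3, a carrier of FGFs, which was named with Fgf14 after the values were seen (log2 fold change 1.9, adjusted p = 0.0177).

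Heparan sulfate genes were mixed, with 2 of 20 called higher and 4 lower on day 4, beside 6.89% and 8.65% of all genes tested, and a median log2 fold change of -0.30. Gpc3, a glypican, was at 7516 and 7484 normalized counts in WT EBs, against 1165 and 1196 in CTCF-K20R EBs (log2 fold change -2.67, adjusted p = 1.98e-05). Gpc6, another glypican, changed by -2.08 (adjusted p = 0.00407) and Extl3, which starts heparan sulfate chains, by -1.34 (adjusted p = 0.000546). Sdc4, a syndecan, was at 460 and 451 in WT EBs, with 1555 and 1536 in CTCF-K20R EBs (log2 fold change 1.76, adjusted p = 6.77e-05). The remaining calls were Gpc4 (-1.33) and Hs6st1 (1.15), a sulfotransferase.

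Of 20 genes that carry the signal inside the cell, 2 were called higher on day 4 and none lower, beside 6.89% and 8.65% of all genes tested, with a median log2 fold change of 0.03. One of them was Gab1, a docking protein (1659 and 1662 normalized counts in WT EBs against 4827 and 4767 in CTCF-K20R EBs, log2 fold change 1.53, adjusted p = 2.53e-05). Among 14 feedback and target genes, 4 were called lower and 1 higher, beside 8.65% and 6.89% of all genes tested, with a median of -0.32. Flrt3, a membrane protein that binds FGF receptors, was at 888 and 905 in WT EBs, with 37.2 and 38.7 in CTCF-K20R EBs (log2 fold change -4.53, adjusted p = 0.000133). The ERK phosphatase Dusp6 was at 6859 and 6895 against 2426 and 2394 (log2 fold change -1.51, adjusted p = 0.000429), and its relative Dusp4 at 6253 and 6245 against 2327 and 2292 (log2 fold change -1.44, adjusted p = 0.000343). Spry1, a Sprouty inhibitor, was at 456 and 447 in WT EBs, with 1001 and 1041 in CTCF-K20R EBs (log2 fold change 1.18, adjusted p = 0.00126), while Spry4 differed by -0.14 (adjusted p = 0.284). Spred1 was also called lower (-1.14, adjusted p = 0.000178).

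On day 0, in medium with the MEK inhibitor, 2 of the 14 feedback and target genes were called higher in CTCF-K20R mESCs and none lower, beside 1.19% and 2.6% of all genes tested, and both are named after their values were seen. Etv4 measured 84.0 and 80.8 normalized counts in WT mESCs and 1234 and 1096 in CTCF-K20R mESCs (log2 fold change 3.8, SE 0.10, adjusted p = 0.000690). Spry4 was at 83.7 and 77.4 in WT mESCs and 460 and 472 in CTCF-K20R mESCs (log2 fold change 2.52, SE 0.09, adjusted p = 0.000743). Their relatives were not called. Etv1 was at 323 and 324 in WT against 612 and 590 in CTCF-K20R mESCs (log2 fold change 0.89, adjusted p = 0.00916), and Spry1 at 285 and 292 against 170 and 189 (-0.69, adjusted p = 0.0207), both short of the fold change required. Etv5 was at 12073 and 11991 against 12322 and 12126, and Spry2 at 635 and 647 against 674 and 641.

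For each ligand the 3 genes were sought whose 4 group means on the log2 scale, each centred on its own mean, lay nearest to those of the ligand, among genes that averaged 100 normalized counts or more. Fgf3 was nearest to Nrp2, a co-receptor of semaphorins and VEGF, with a distance of 0.70, followed by Arl4d (0.81) and Pcdh19 (0.91). Nrp2 had group means of 466 in WT mESCs, 1007 in CTCF-K20R mESCs, 2504 in WT EBs and 70.5 in CTCF-K20R EBs, the same order of groups as Fgf3. For Fgf4 the nearest genes were Zfp296 (0.06), a zinc finger gene of pluripotent cells, Hk1 (0.31) and Kat2b (0.31). Fgf8 was nearest to Mab21l2 (0.72), Wnt3 (0.80), the WNT ligand needed for the primitive streak, and Rxrg (0.82). Distances from Fgf15 were 0.20 for Arhgap18 and 0.24 for L3mbtl3, and those from Fgf17 were 0.10 to 0.13 (Anpep, Sec14l2 and Zfp69). From Fgf5 the distances were wider, with 2.44 for Pkdcc and 2.54 for Pxdc1. These are likenesses over 4 group means that share the same libraries, and they were not tested.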

How the data were processed

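RNA-seq was performed on 8 libraries. The authors trimmed the reads with Trim Galore, quantified them on mm10 with salmon, collapsed them to genes with tximport and normalized them with DESeq2. These normalized counts are the deposited signal, to which a factor for each gene and library belongs, so that whole reads could not be used. The annotation release is not given in the sources used here. Library totals ran from 19412659 to 21311513 normalized counts.

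Genes averaging 10 or more were fitted as log2(value + 1) by limma 3.58.1 (R 4.3.3), using lmFit with 1 mean per group and eBayes with its trend option, and p-values were adjusted by Benjamini-Hochberg over 15767 genes. With the WT pairs averaged, the fit held 6 samples and 2 residual degrees of freedom. The study describes the libraries of a group as biological replicates, yet the WT pairs differed by less than sampling noise, and p-values measure only the spread between these samples. The threshold for calls follows the study. The fit was tested on simulated data. Positions came from GENCODE vM21 and promoters from RefSeq. Python 3.11.15 with pandas 2.3.3, numpy 2.4.6 and matplotlib 3.10.9 was used.

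The 10 genes and the lists were chosen with earlier results of these data known. The text names all 10, their neighbours Ccnd1, Oraov1 and Ano1, Ctcf, of each pathway list at most 4 genes called on day 4 with the largest changes and a mean of at least 100 in EBs, and the 3 genes nearest to each ligand. Gm26793, Fadd, Fgf14, Fgfbp3, Gpc4, Hs6st1, Spred1, Sox2, Thy1, Col1a1, Etv1, Etv4, Etv5, Spry4 and Spry2 were named outside this rule, after their values were seen, and a few genes that the rule picks are left out. The alternatives were other filters, pseudocounts, scalings, thresholds and samples. Limits of detection cover counting error only.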

Additional observations from a re-analysis of the deposited data

Results flagged for a closer look

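The genotype difference of Fgf3 was not the same on both days, with an interaction of -6.34 on the log2 scale (95% interval -8.50 to -4.18, adjusted p from limma 0.00581 and between 0.000163 and 0.0555 over 19 alternatives). In Fgf4 the difference between the days was 1.17 (95% interval 0.98 to 1.37), with an adjusted p under 0.05 in all 19 alternatives. In Fgfr1 it was -0.40 (95% interval -0.55 to -0.24, adjusted p up to 0.0963 over 19 alternatives), and it did not pass without replicate 1 (adjusted p = 0.0562) or replicate 2 (adjusted p = 0.0560) of the CTCF-K20R EBs.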

How the results depend on the processing

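On day 4, 2 of the 10 genes were called, and 4 were called with all 8 libraries as separate samples, with a pseudocount of 10 or with only the groups compared in the fit, Fgf8 and Fgfr2 being added in each. Over all genes the day 4 calls also moved, from 1087 higher and 1364 lower to 1376 and 1778 with 8 separate samples. They were 994 and 1460 with the pseudocount of 10, and 1053 and 1370 with only the groups compared. Leaving out a library gave 2 to 4 calls on day 4, 0 to 2 on day 0, 2 to 4 for the difference between the days and 4 to 7 for CTCF-K20R day 4 against day 0, while WT day 4 against day 0 kept 7. With all 8 libraries as separate samples there were 2 calls on day 0 and 4 for the difference between the days, Fgf15 and Fgf17 being added, and without a mean-variance trend 1 for the latter. With 8 separate samples the day 0 calls over all genes went from 188 higher and 410 lower to 445 and 903. For the difference between the days they went from 1079 and 952 to 1709 and 1631, and to 881 and 704 without the trend. The cause of these moves was not tested. Signs turned in genes with small or disagreeing values. With quantile normalization Fgfr4 was at 0.22 on day 4 and Fgf17 at -0.083 in WT day 4 against day 0. Without 1 library, Fgfr4 ranged from -0.33 to 0.27 on day 4, with 0.02 and 0.27 among the values, and from -0.45 to 0.004 on day 0. For the difference between the days, Fgfr2 ranged from -0.48 to 0.42, with 0.0024, 0.0048 and 0.11 among the values, and Fgfr4 from -0.11 to 0.49, with -0.03 among them. Fgfr3 ranged from -0.057 to 3.07 in CTCF-K20R day 4 against day 0. Quantile normalization also turned the split of all day 4 calls from 1087 higher and 1364 lower to 1473 higher and 1218 lower. Same-numbered CTCF-K20R samples shared no deviation between the days (correlation across genes of -0.04). This rests on 1 replicate difference per day and cannot tell whether they were paired in the experiment. With a replicate block 3 genes were called on day 4, Fgf8 being added (adjusted p from limma 0.0262), 0 on day 0, 2 for the difference between the days and 7 for CTCF-K20R day 4 against day 0. The fit of only the groups compared could not be run for the difference between the days, which needs all groups. Depth limits Fgf5 and Fgfr3 on day 0, where WT or CTCF-K20R libraries were at or under 3 reads.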
